A study of Rattus norvegicus with 3 samples.

Results

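The genes described here are 8 rat genes of cholesterol synthesis that the transcription factor SREBP2 is known to regulate, with the gene of that factor among them. They were chosen by function, through the RefSeq accession of their probes, and all 8 had a probe on the array, out of 26785 genes or transcripts with one. In pathway order they are Hmgcs1, Idi1, Fdps, Fdft1, Sqle, Lss and Cyp51, which encode enzymes, and Srebf2. None of the 8 encodes a receptor or carrier for cholesterol uptake. Kidney RNA came from male Sprague-Dawley rats, 5 weeks old by the labels, on a standard diet. The G200 group drank water with 200 ppm GABA, the inhibitory transmitter gamma-aminobutyric acid, and the negative control received 0 ppm. The labels describe the tissue as kidney outside any tumor, and the study describes its animals as normal rats that drank GABA for 3 weeks after acclimation. Each of the 3 arrays carried control RNA in Cy3 (green) and G200 RNA in Cy5 (red).

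The dyes were exchanged on 0 arrays, so a dye difference and the effect of GABA cannot be told apart within a single ratio. The labels call the replicates rats 1 to 3, and so few arrays give each value a wide margin. Over 1389 probes with at least 5 spots, 22 differed between arrays in green after Benjamini-Hochberg adjustment, against 1125 in red. For this reason the green channels count here as a single control, and testing a ratio against 0 leaves out how control rats differ. Bright spots did not all follow this, and the control signal of Alb was 13578 units on replicate 1 but 39598 and 40913 on replicates 2 and 3. Ratios are log2 of G200 over control, positive where G200 was higher. With loess scaling of the dyes, 5316 of 14179 genes tested (37.5%) passed an adjusted p of 0.05, 1638 (11.6%) higher and 3678 (25.9%) lower in G200. The balance was opposite with median centring (4990 higher, 1245 lower) and with no normalization (8010 higher, 304 lower), and 1611 genes passed without replicate 3.

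Cells make cholesterol from acetyl-CoA through the mevalonate pathway, which yields isoprenoid units, then squalene, then lanosterol, which is trimmed to cholesterol. SREBP2 is held in the endoplasmic reticulum by SCAP and INSIG proteins while sterol is plentiful, and is released to the nucleus to raise transcription of these genes when sterol is low. The kidney both makes cholesterol and takes it up from lipoproteins. In whole tissue, fewer cells of a type and less RNA per cell cannot be told apart.

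With loess scaling of the dyes, Hmgcs1, Fdft1, Cyp51 and Idi1 were lower in G200, which is 4 of the 8 genes against 25.9% of all genes tested (37.5% in either direction), and 0 of the 8 were higher against 11.6%. This direction depended on the scaling of the dyes. When arrays were centred on their medians instead, these 4 genes no longer passed the threshold and Sqle was higher, and with no normalization the ratios of all 8 genes were positive. The median of all genes moved from -0.05 with loess to 0.27 with median centring and 0.62 with no normalization. Measured from that median, Hmgcs1, Fdft1 and Cyp51 lay below it under each of these scalings, and Sqle above it. Mean ratios with median centring and with no normalization differed by the same amount for every gene. Distances from the median were therefore equal under these scalings by construction, and are not separate checks. Of 18 alternatives to the settings used, 15 kept the call of Hmgcs1 and of Fdft1 as lower, 14 that of Cyp51 and 8 that of Idi1. Many of these alternatives change only the filter, the summary of probes or the test, and leave the ratio of Hmgcs1 as it was. Tallies of calls kept, here and below, are therefore not counts of separate checks. Idi1, Fdps, Lss and Srebf2 lay below the median of all genes with loess and above it with median centring and with no normalization.

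Promoter windows of 300 bases, 250 before and 50 after the start site, were matched by symbol in RefSeq (GRCr8) for 6 of the 8 genes, Fdft1 and Sqle being the others. The windows of Hmgcs1 and Cyp51 are printed because these genes were lower with loess and below the median of all genes under each scaling, and those of Fdps and Srebf2 because they hold matches to letters patterned on the sterol regulatory element, the sequence SREBP proteins bind. Each is written 5' to 3' on the gene's strand, with capitals at every match, on either strand, to any of 9 motifs.
Hmgcs1, chr2:53382054-53382353, plus strand: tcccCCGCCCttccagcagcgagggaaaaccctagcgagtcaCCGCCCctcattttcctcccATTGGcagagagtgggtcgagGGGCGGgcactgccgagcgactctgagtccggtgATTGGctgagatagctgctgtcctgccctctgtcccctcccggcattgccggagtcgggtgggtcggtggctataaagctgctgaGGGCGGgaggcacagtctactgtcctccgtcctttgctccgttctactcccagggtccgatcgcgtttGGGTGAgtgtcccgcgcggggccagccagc
Cyp51, chr4:30991443-30991742, plus strand: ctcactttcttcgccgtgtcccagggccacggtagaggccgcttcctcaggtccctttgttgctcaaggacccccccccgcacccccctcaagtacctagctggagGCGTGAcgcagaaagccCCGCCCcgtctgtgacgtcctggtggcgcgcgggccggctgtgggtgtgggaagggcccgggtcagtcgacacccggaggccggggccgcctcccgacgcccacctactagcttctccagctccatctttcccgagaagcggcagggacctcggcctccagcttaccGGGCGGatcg
Fdps, chr2:176804767-176805066, minus strand: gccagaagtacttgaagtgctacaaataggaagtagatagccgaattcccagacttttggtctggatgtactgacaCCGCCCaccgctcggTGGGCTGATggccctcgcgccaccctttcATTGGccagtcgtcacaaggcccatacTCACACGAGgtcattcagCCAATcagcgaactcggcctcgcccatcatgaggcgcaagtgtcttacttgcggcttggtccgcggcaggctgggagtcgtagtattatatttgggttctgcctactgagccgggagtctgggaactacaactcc
Srebf2, chr7:115543057-115543356, plus strand: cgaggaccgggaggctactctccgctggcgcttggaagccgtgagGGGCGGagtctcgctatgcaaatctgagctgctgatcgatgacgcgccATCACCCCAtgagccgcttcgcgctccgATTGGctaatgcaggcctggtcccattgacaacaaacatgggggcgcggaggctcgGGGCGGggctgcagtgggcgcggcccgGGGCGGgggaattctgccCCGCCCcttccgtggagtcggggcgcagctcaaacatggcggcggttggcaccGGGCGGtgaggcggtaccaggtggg

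The 9 motifs were written down in 1 search of these windows, with their matches in view and not as a list fixed beforehand, and several overlap or contain one another. N stands for any base. TCACNCCAC, CACCCCAC, CACNCCAC and TCACNNCAC matched 0 of the 6 windows, and occurred in 1.12%, 2.7%, 5.8% and 3.78% of all 33469 promoter windows. ATCANNCCA, found in 2.86% of all windows, matched Fdps and Srebf2, in Srebf2 as ATCACCCCA from base -157 to -149 before the start site. TCACNCGAG, found in 0.415%, matched Fdps alone, as TCACACGAG from base -103 to -95. The shorter TCACNC, which that motif contains and which also lies within the Srebf2 match, was in 41.7% of all windows and in 5 of the 6, Lss being the exception. CCAAT, the letters bound by NF-Y, was in 37.5% of all windows and in 5 of the 6, all but Cyp51. GGGCGG, the letters bound by Sp1, was in 33.1% and in 5 of the 6, all but Idi1. Hmgcs1 and Cyp51 had no match to the 6 longer motifs. In 11 windows of other sterol synthesis genes, ATCANNCCA, TCACNCGAG and TCACNCCAC had 0 matches. There TCACNNCAC matched Nsdhl and Hsd17b7, CACNCCAC matched Acat2 and Ebp, and CACCCCAC matched Ebp. CCAAT was in 9 of the 11, GGGCGG in 10 and TCACNC in 6. A match describes letters in a window and does not show binding.

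Hmgcs1 encodes the cytosolic synthase that makes HMG-CoA, at the entry to the mevalonate pathway. Its log2 ratio was -0.76, -0.94 and -0.81 on replicates 1, 2 and 3. These were the lowest ratios of any member on replicates 2 and 3, and on replicate 1 only Fdft1 had a lower one. The mean was -0.84 ± 0.09 (SD, n = 3; limma adjusted p = 0.00106) with loess, and -0.11 with median centring (adjusted p = 0.644) and 0.24 with no normalization (adjusted p = 0.401). Relative to the median of all genes, these were -0.79, -0.38 and -0.38.

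Before scaling, the net intensity of the Hmgcs1 spot (median of the spot less that of its local background) was 1568, 1643 and 1543 units in the control and 2774, 1269 and 1833 in G200. The control values lay close together, while the G200 values differed with the brightness of the red channel. The median log2 ratio of all spots before scaling was 0.51, 0.20 and 0.35 on replicates 1, 2 and 3. The red signals of the other members fell in the same order, highest on replicate 1 and lowest on replicate 2.

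Idi1 encodes the isomerase that interconverts the 2 isoprenoid building blocks. Its log2 ratio was -0.28, -0.21 and -0.21 on the 3 arrays, averaging -0.23 ± 0.04 (SD, n = 3; limma adjusted p = 0.0336) with loess, but turned to 0.40 with median centring (adjusted p = 0.063) and to 0.75 with no normalization (adjusted p = 0.0193). Leaving out any 1 replicate also lost the call of Idi1, with adjusted p from 0.0634 to 0.163. So did the deposited ratio (0.255), offset 0 (0.0896), a variance trend (0.0511) and separate channels (0.0698).

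Fdps encodes the synthase that joins these units into farnesyl diphosphate, the branch point to sterols and other isoprenoids. It had 2 probes, both well above background on all arrays. The brighter probe, which stood for the gene, gave -0.19, -0.10 and -0.14, averaging -0.14 ± 0.05 (SD, n = 3; limma adjusted p = 0.126), and turned to 0.39 with median centring (adjusted p = 0.0546) and 0.74 with no normalization (adjusted p = 0.018). It was -0.26 with the deposited ratio (adjusted p = 0.103) and -0.08 with probes averaged (adjusted p = 0.387). The other probe gave 0.12, -0.27 and 0.09, a mean of -0.02 ± 0.22 (SD, n = 3). The probes of Fdps differed in sign on replicates 1 and 3, and neither sets a direction for the gene.

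Fdft1 encodes squalene synthase, the first enzyme committed to sterols. Its log2 ratio was -0.87, -0.61 and -0.79 on replicates 1, 2 and 3, averaging -0.76 ± 0.13 (SD, n = 3; limma adjusted p = 0.00156). Its ratio was -0.09 with median centring (adjusted p = 0.576) and 0.26 with no normalization (adjusted p = 0.295). From the median of all genes, the distance of Fdft1 was -0.71 with loess and -0.36 under both other scalings.

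Sqle encodes squalene epoxidase, which acts next and is a slow step of the pathway. It was the only member with a positive mean, from ratios of 0.00, 0.13 and 0.14 on the 3 arrays. The mean was 0.09 ± 0.08 (SD, n = 3; limma adjusted p = 0.316). It reached 0.70 with median centring (adjusted p = 0.0181) and 1.05 with no normalization (adjusted p = 0.00694). From the median of all genes, Sqle lay at 0.14 with loess and 0.43 under both other scalings. The enzymes on either side of the squalene step, Fdft1 and Sqle, thus had ratios of opposite sign with loess, and their difference was not tested.

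Lss encodes lanosterol synthase, which closes the sterol rings. Its ratio was -0.34 on replicate 1 and -0.02 and -0.01 on replicates 2 and 3, the largest SD among the members at 0.19. The mean of Lss was -0.12 (limma adjusted p = 0.303), but 0.36 with median centring (adjusted p = 0.0511) and 0.71 with no normalization (adjusted p = 0.0169). Without replicate 1 it was -0.02.

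Cyp51 encodes the demethylase that starts the conversion of lanosterol. Its probe was spotted 10 times on each array, so its ratio could be set beside the scatter of replicate spots. The 10 spots had a net intensity of 123 ± 18.58, 127 ± 11.54 and 124 ± 10.47 units (SD over spots) in the control and 214 ± 32.5, 105 ± 12.6 and 149 ± 19.5 in G200 on replicates 1, 2 and 3. In the control the arrays differed by less than the spots of 1 array. After loess the log2 ratio of Cyp51 was -0.45, -0.43 and -0.45, and every spot was negative, from -0.64 to -0.22 on replicate 1, -0.53 to -0.32 on replicate 2 and -0.58 to -0.32 on replicate 3. Its mean was -0.44 ± 0.01 (SD, n = 3; limma adjusted p = 0.00444), with -0.01 under median centring (adjusted p = 0.955) and 0.34 with no normalization (adjusted p = 0.192). From the median of all genes, Cyp51 lay at -0.39 with loess and -0.28 under both other scalings. Without replicate 3 its adjusted p was 0.0511.

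Srebf2 encodes the SREBP2 precursor. Its log2 ratio was -0.24, -0.11 and -0.39 on the 3 arrays, averaging -0.25 ± 0.14 (SD, n = 3; limma adjusted p = 0.0504), outside the threshold, and it turned to 0.39 with median centring. Over the alternatives its adjusted p ranged from 0.0204, with no normalization and a ratio of 0.74, to 0.296. It passed the threshold with a negative ratio under 4 of 18 alternatives.

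**Figure D1:**
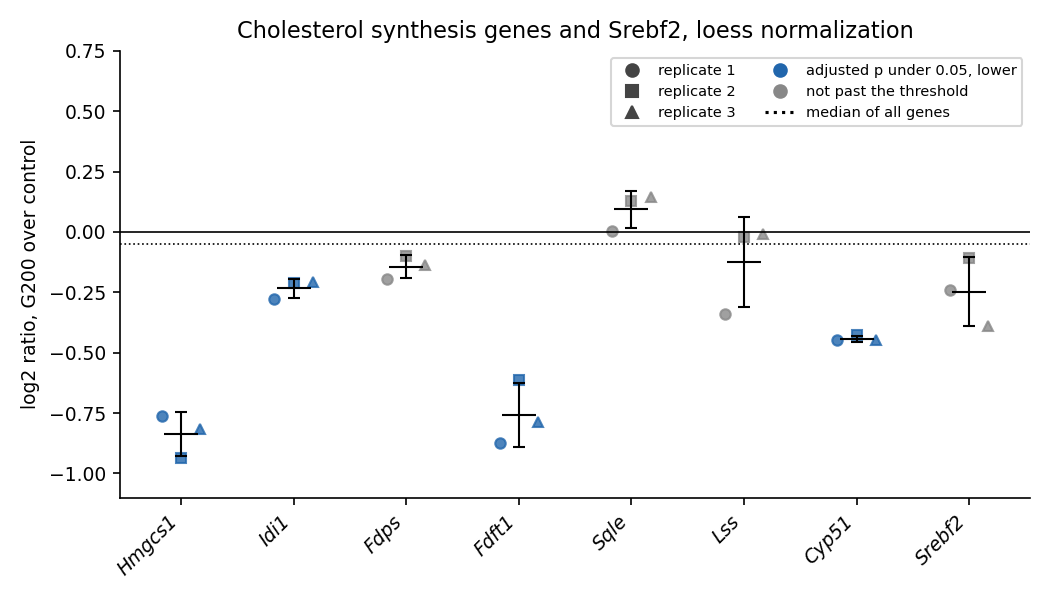
Log2 ratio of G200 over control (vertical axis) for the 8 genes in pathway order, with 1 symbol per replicate array and the mean ± SD of 3 arrays in black, after loess scaling. Hmgcs1 and Fdft1 lie lowest with loess, at -0.84 and -0.76 (0.24 and 0.26 with no normalization), Sqle is at 0.09, and the dotted line is the median of all genes at -0.05.

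The median log2 ratio of the 8 genes was -0.24, against -0.05 for all genes tested, and -0.31, -0.16 and -0.30 on replicates 1, 2 and 3. Of the 8 means 7 were negative, as were 8115 of 14179 over all genes, and each of these 7 was negative on all 3 arrays, as were 5910 of all genes, while the other Fdps probe was negative on 1. With median centring the median of the 8 was 0.38 against 0.27 for all genes, and with no normalization 0.73 against 0.62. The median of the 8 thus lay below that of all genes with loess and above it with median centring. With no normalization the distance between these medians was the same as with median centring by construction. Sqle lay above the median of all genes with loess, and Hmgcs1, Fdft1 and Cyp51 lay below it throughout. The SD over arrays was 0.01 to 0.19 among the members, with a median of 0.08 against 0.12 over all genes.

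**Figure D2:**
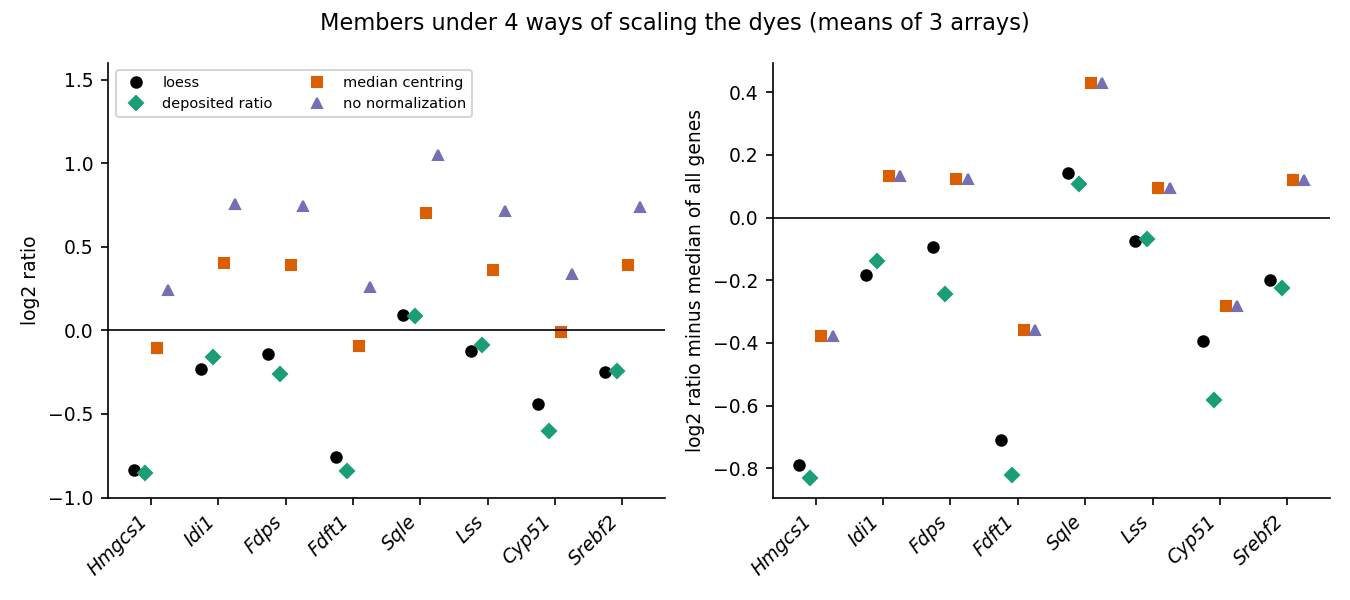
Mean log2 ratio of each of the 8 genes over 3 arrays (left) and the same less the median of all genes (right), under loess, the deposited ratio, median centring and no normalization. Hmgcs1, Fdft1 and Cyp51 stay below the median of all genes and Sqle above it under these 4 scalings, while Idi1, Fdps, Lss and Srebf2 change side. Median centring and no normalization give equal distances from that median by construction.

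From a list of 13 other sterol synthesis genes, 10 were past the filter on dim probes and were tested. With loess 4 of the 10 were lower and 0 higher, against 25.9% and 11.6% of all genes. The list leaves out some genes of the pathway, which are not described here. Its median was -0.05, equal at this rounding to that of all genes.

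Ebp encodes the sterol isomerase of the late pathway, and its ratio was -1.01, -0.70 and -0.86 on the 3 arrays (mean -0.86 ± 0.15, SD, n = 3; limma adjusted p = 0.00136). Tm7sf2 encodes a sterol reductase, and its ratio was -0.94, -0.59 and -0.70 (mean -0.74 ± 0.18, SD, n = 3; limma adjusted p = 0.0024). Both turned positive with no normalization, Ebp to 0.24 and Tm7sf2 to 0.18. With median centring Ebp was at -0.11 and Tm7sf2 at -0.17, both below the median of all genes at 0.27. Mvd, the decarboxylase that ends the mevalonate steps, had ratios of -0.43, -0.32 and -0.24 and a mean of -0.33 (adjusted p = 0.0145), which turned to 0.25 with median centring. Nsdhl, which removes methyl groups after Cyp51, had ratios of -0.23, -0.50 and -0.23 and a mean of -0.32 (adjusted p = 0.0256). Its mean was -0.15 with median centring and turned to 0.21 with no normalization. Of 18 alternatives, 15 kept Ebp and Tm7sf2 lower, 13 Mvd and 11 Nsdhl, and the ratio of Nsdhl was -0.58 with the deposited ratio and -0.67 with offset 0. The 6 others were not past the threshold with loess. They were Acat2 at 0.06, Pmvk at 0.03, Msmo1 at 0.14, Hsd17b7 at -0.09 (0.32 with no normalization), Sc5d at 0.00 (0.41 with median centring) and Dhcr7 at 0.24, with adjusted p from 0.0619 for Dhcr7 to 0.969 for Sc5d. With median centring Acat2 (0.67), Msmo1 (0.81), Dhcr7 (0.78) and Sc5d were called higher, and with no normalization Pmvk (0.73) was as well. Genes lower with loess were thus found early, in the middle and late in the pathway, among neighbours that were not past the threshold.

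**Figure D3:**
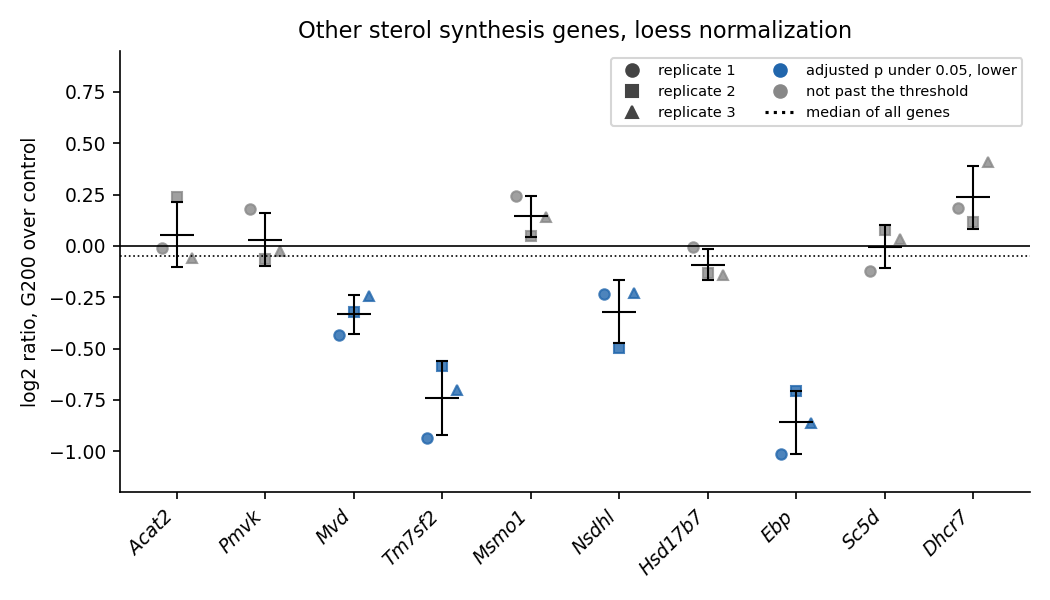
Log2 ratio of G200 over control (vertical axis) for the 10 other sterol synthesis genes tested, with 1 symbol per replicate array and the mean ± SD of 3 arrays in black, after loess scaling. Ebp, Tm7sf2, Mvd and Nsdhl were lower with loess, turning positive with no normalization, and the remaining 6 were not past the threshold.

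Counts for the lists around the pathway stand against 11.6% of all genes higher and 25.9% lower with loess. Of 7 tested genes that control SREBP, 3 were higher and 1 lower with loess, and the median was 0.21. Erlin1, which encodes a membrane protein of the endoplasmic reticulum that restrains SREBP, had ratios of 0.44, 0.42 and 0.38 (mean 0.41 ± 0.03, SD, n = 3; limma adjusted p = 0.00547), but a mean of 0.22 when its probes were averaged. Mbtps1, the protease that makes the first cut of SREBP in the Golgi, had a mean of 0.29 (adjusted p = 0.0353). Ubxn4, an adaptor of protein degradation at the same membrane, was at -0.36 (adjusted p = 0.00862) and turned to 0.32 with median centring, and Insig2, which encodes a retention protein, was at -0.38 (adjusted p = 0.0521), at 0.15 with no normalization and at -0.84 with the deposited ratio. The call was kept in 16 of 18 alternatives for Erlin1 and 12 for Mbtps1 and Ubxn4, and Insig2 was called lower in 2. In the isoprenoid branch that leaves the pathway at Fdps, 2 of 6 genes tested were higher and 0 lower. Coq2, of coenzyme Q synthesis, was at 0.36 (adjusted p = 0.0111). Nus1, of dolichol synthesis, was at 0.29 by its brightest probe. With its probes averaged Nus1 was instead called lower, at -0.25 (limma adjusted p = 0.0314). Dhdds (-0.16, turning to 0.47 with median centring) and Fntb (0.12) were not past the threshold with loess, and both were called higher with median centring. Of 18 alternatives, 16 kept Coq2 higher and 14 Nus1.

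Of 9 tested genes of fatty acid synthesis, 4 were higher and 3 lower, with a median of -0.07. Acss2, which makes acetyl-CoA in the cytosol, had ratios of 0.94, 0.40 and 1.04 (mean 0.79 ± 0.34, SD, n = 3; limma adjusted p = 0.00647), and the desaturase gene Scd2 had a mean of 0.80 (adjusted p = 0.00543). Acly, which supplies acetyl-CoA from citrate, was at -0.32 (adjusted p = 0.0314) and turned to 0.42 with median centring. The desaturase gene Scd had ratios of -1.65, -2.42 and -3.09 and a mean of -2.39 (adjusted p = 0.00162). Its mean was -1.49 with no normalization and -3.27 with the deposited ratio. The call was kept in 17 of 18 alternatives for Scd and Scd2, 15 for Acss2 and 9 for Acly. Of 8 tested genes of uptake and intracellular transport, 1 was higher and 3 lower with loess. Osbp, which encodes a sterol carrier, was at 0.43 (adjusted p = 0.00968), 1.15 with the deposited ratio and 0.94 with offset 0, and the receptor gene Scarb1 was at -0.37, Stard3 at -0.45 and Npc1 at -0.24, all 3 turning positive with no normalization, where Stard3 and Npc1 were called higher, as were Mvd, Ubxn4 and Acly. The call was kept in 16 of 18 alternatives for Osbp, 14 for Scarb1, 13 for Stard3 and 9 for Npc1, which lost it without any 1 replicate. Of 10 tested genes of efflux, esterification and their control by LXR, 3 were lower and 0 higher. They were Lcat (-2.34), Abcg5 (-0.76) and Nr1h3 (-0.54), the last turning to 0.14 with median centring. Lcat was at -1.42 with no normalization and at -3.10 with the deposited ratio. Abcg5 was at -0.42 with no normalization (adjusted p = 0.0982), and at -2.45 with the deposited ratio and -2.00 with offset 0. Cyp27a1 was at -0.20 and not past the threshold with loess, at 0.10 with no normalization, and was called lower with the deposited ratio (-1.003), offset 0 (-0.56) and a variance trend. The call was kept in 17 of 18 alternatives for Lcat, 14 for Nr1h3, and 15 of 17 for Abcg5. Abcg5 and Cyp27a1 were each well above background in G200 on 2 of 3 arrays, and so passed the filter only through the control.

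**Figure D4:**
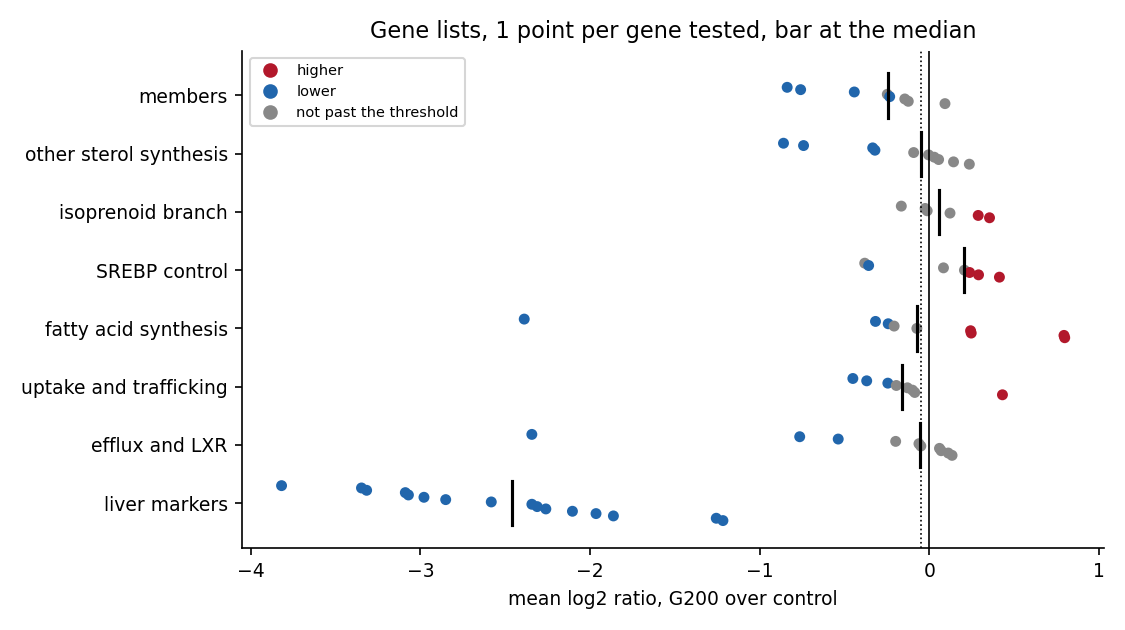
Mean log2 ratio of G200 over control (horizontal axis) for each tested gene of 8 lists after loess scaling, coloured by the adjusted p of 0.05, with a bar at each list's median and a dotted line at the median of all genes. The members' median is -0.24 (0.38 with median centring) and that of the liver markers -2.46.

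The kidney label was checked against 13 tubule and podocyte markers, and all 13 were tested. Before scaling, the summed net intensity of these markers was 50181, 60046 and 54956 units in the control and 207534, 121831 and 149159 in G200. Sums here and below are unscaled, and the median log2 ratio of all spots before scaling was 0.51, 0.20 and 0.35. With loess these 13 markers had a median log2 ratio of 0.26, and 0.35, 0.04 and 0.05 on replicates 1, 2 and 3. Of the 13, 5 were higher and 0 lower, against 11.6% and 25.9% of all genes, and 4 means were negative. The ratio of Umod, the largest of them, was 0.87 (adjusted p = 0.00101; called in 17 of 18 alternatives).

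The liver list does not cover every well known liver gene. Of 18 liver markers listed, 16 were tested and all 16 were lower with loess, against 25.9% of all genes. Not all of the 16 passed the filter through G200 as well as the control. Their median log2 ratio was -2.46, and -1.50, -2.71 and -3.51 on replicates 1, 2 and 3. Their summed net intensity before scaling was 46157, 75191 and 74799 units in the control and 44245, 11466 and 6656 in G200. Alb had ratios of -2.06, -3.73 and -5.67 (adjusted p = 0.00584; called in 15 of 18 alternatives), and Cps1 and Tat were not well above background in either group. The ratio fell from replicate 1 to 2 to 3 for 15 of the 16 liver markers, and for Scd and Lcat. It fell in this order for other genes named here too, among them Insig2, Dhdds, Hsd17b7 and C1qa. The share of all genes with this order was not counted. The part of the liver markers in the values of the cholesterol genes was not tested.

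Of 9 adrenal markers, a tissue rich in cholesterol, 3 were tested and 2 were lower with loess, against 25.9% of all genes. They were Fdx1 at -0.26 and Cyp21a1 at -0.43, which turned to 0.71 (called higher) and 0.23 (not called) with no normalization. Hsd3b1 was at 0.16 and not past the threshold, while Star, Cyp11b1, Cyp11b2, Mc2r and Nr5a1 were not well above background in either group. The adrenal sum before scaling was 591, 655 and 616 units in the control and 1233, 626 and 821 in G200. Of 7 adipose markers with a probe, 6 were tested and 1, Cfd, was lower at -0.79 with loess, and Lpl was at 0.15, but was called higher with median centring (0.54) and no normalization (0.89). Cfd was at -0.57 with median centring and -0.22 with no normalization, past the threshold in neither, and at -1.69 with the deposited ratio (adjusted p = 0.0611) and -1.48 with offset 0 (adjusted p = 0.0382). The adipose sum before scaling was 414, 426 and 395 units in the control and 813, 501 and 516 in G200. Lep was not well above background in either group. Of 8 macrophage markers, 6 were tested and 1, C1qb, was lower at -0.43 with loess but at 0.23 with median centring. The other 5 were not past the threshold. A count of 1 of 6 lower, in the adipose and in the macrophage list, stands against 25.9% of all genes. Of the 6 macrophage means 4 were negative, and the median of that list was -0.10. The 2 positive means were those of Adgre1 at 0.29 and C1qa at 0.11. Of 18 alternatives, 14 kept Cyp21a1 lower, 11 C1qb and 10 Fdx1 and Cfd. The macrophage sum before scaling was 1014, 1132 and 1122 units in the control and 3056, 1100 and 1717 in G200. Mrc1 was not well above background in either group. Larger ratios with the same sign were also given by the deposited ratio for Erlin1 (0.69), Mbtps1 (0.47), Scd2 (1.23) and Cyp21a1 (-0.79), and by offset 0 for Scarb1 (-0.56). With median centring and with no normalization, Erlin1 was at 0.87 and 1.23, Mbtps1 at 0.90 and 1.25 and Scd2 at 1.27 and 1.62. Coq2 (0.92 and 1.27), Nus1 (0.90 and 1.25) and Acss2 (1.42 and 1.77) were also larger there. Cyp21a1 went the other way, to -0.12 and 0.23, as did Scarb1, to -0.02 and 0.33. The part of the adrenal, adipose and macrophage markers in the values above was not tested.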

How the data were processed

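The authors deposited Agilent Feature Extraction output for 3 arrays (version 11.5.1.1 per the file headers, 9.3.2.1 in the submitters' processing notes, and another version in the methods). The deposited values used are median pixel intensity, in either colour, for spots and their surrounding background, uncorrected. The deposited log10 ratio of G200 to control, from the authors' own background and dye correction, serves as an alternative.

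Here, limma 3.58.1 (R 4.3.3) was used for background correction by normexp over all 44254 spots, offset 50, and for loess within each array. Control spots (1224 positive, 153 negative) had no weight, and outlier spots (635, 736 and 945) were left out. No gene spot was saturated. Spots of a probe were averaged, and the brightest probe stood for its gene. Of 30367 probes, 18355 (60.4%) were matched by accession to a RefSeq symbol (GRCr8). Probes needed 1 colour well above background on every array, judged by over 0.5 of their spots, which left 15649 probes and 14179 genes. This rule was chosen after 8 versions had been counted, because its count equalled that of earlier results of these data, and 3 of the others were added as alternatives after seeing the data. All 8 members were tested under each version. On replicates 1, 2 and 3, green gene spots passed as well above background in 59.8%, 62.7% and 62.3% of cases and red ones in 63%, 56.6% and 61%.

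Ratios were tested gene by gene against 0 with limma (lmFit and eBayes, two-sided, Benjamini-Hochberg over all genes). The array is the block, through the ratio. The gene-by-gene test was run on simulated log ratios. Background correction, scaling of the dyes and the filter were not simulated. A first limit on the share of changed genes recovered was not met with the observed SDs, and limits on the estimates, their signs and the false calls were used in its place. Tests, alternatives and gene lists were set with earlier results of these data known, as were the members. The lists do not cover every gene of the pathway or every well known liver gene. Genes left out were not looked at one by one. Named genes are the 8 members, every other sterol synthesis gene tested, up to 4 genes of each further list with the largest absolute ratio, and from each marker list the most intense gene and the gene with the largest absolute ratio. Genes named for lacking signal, Hsd3b1, Adgre1 and C1qa are the exceptions, and single results of other listed genes are not reported here. The alternative named for the methods' t-test takes the 3 ratios of a gene against 0. The methods' comparison between groups with unequal variance was not run. The 9 promoter motifs were not set beforehand.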

Additional observations from a re-analysis of the deposited data

How the results depend on the processing

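The dyes were exchanged on 0 arrays, all arrays lay on 1 slide, and 3 arrays limit precision. Signal over background limits dim genes, whose ratios the offset shrinks. Of 18 alternatives, 3 were added after seeing the data. The scaling of the dyes moved directions most, and the cause was not tested. Reversed means a changed sign where the ratio passes the threshold in either setting.

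With median centring, 6235 genes were called (80% higher), 1 member (Sqle, higher) and 4 other sterol genes (higher), and medians were 0.27 for all genes, 0.38 for the members and 0.32 for other sterol genes. Fdps (0.39), Lss (0.36) and Srebf2 (0.39) changed sign without passing the threshold. Reversed ratios were Idi1 0.40, Mvd 0.25, Sc5d 0.41, Dhdds 0.47, Ubxn4 0.32, Acly 0.42, Stard3 0.27, Npc1 0.31, Nr1h3 0.14, Fdx1 0.36 and C1qb 0.23.

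With no normalization, 8314 genes were called (96.3% higher), 5 members and 6 other sterol genes (all higher), and medians were 0.62, 0.73 and 0.67. Hsd17b7 (0.32), Insig2 (0.15) and Cyp27a1 (0.10) changed sign without passing it. Reversed ratios were Hmgcs1 0.24, Idi1 0.75, Fdps 0.74, Fdft1 0.26, Lss 0.71, Cyp51 0.34, Srebf2 0.74, Ebp 0.24, Mvd 0.60, Nsdhl 0.21, Sc5d 0.76, Tm7sf2 0.18, Dhdds 0.82, Ubxn4 0.67, Acly 0.77, Stard3 0.62, Scarb1 0.33, Npc1 0.66, Nr1h3 0.49, Fdx1 0.71, Cyp21a1 0.23 and C1qb 0.58. Every mean ratio lay above its value with median centring by the same amount. Of the reversed genes, Hmgcs1, Fdft1, Cyp51, Ebp, Nsdhl, Tm7sf2, Scarb1 and Cyp21a1 stayed negative with median centring.

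The methods' t-test, applied to the ratios against 0, called 4475 genes, 5 members and 3 other sterol genes unadjusted, and 2, 0 and 0 with Benjamini-Hochberg adjustment, which is outside the methods' criterion. The median of other sterol genes was -0.0187 with the deposited ratio, -0.0837 with offset 0 and 0.0130 with no filter on dim probes. Averaging probes put Nus1 at -0.25, where it was called lower, and Erlin1 at 0.22.

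Without replicate 1, 2 or 3 (leave-one-out), the range was 1611 to 4965 genes called, 2 to 4 members and 2 to 3 other sterol genes, with medians of -0.28 to -0.21 for the members and -0.0898 to -0.0449 for other sterol genes. Hmgcs1 and Fdft1 kept their call in each. Results over all settings were tallied for 37 named genes besides the members, without Hsd3b1, Adgre1, C1qa and the genes named for lacking signal. Of these results, 524 were the same, 88 weaker, 17 stronger, 26 reversed and 9 moved. Many settings change only the filter or the test and leave the ratio as it was, so these counts are not of separate checks.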
